A study of Drosophila melanogaster with 12 samples.

Results

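The effect described is that of a TDO2 inhibitor on the RNA of the head in female fruit flies (Drosophila melanogaster), taken over both genotypes of the series at once. Each library was the RNA of 1 head, and all 12 of the 12 libraries entered the comparison, 6 from flies fed the inhibitor against 6 from flies fed its solvent, dimethyl sulfoxide (DMSO). The members were chosen by the treatment named in each library's label, with genotype as a covariate. The 6 inhibitor libraries came from 3 heads labelled SIRT6 KO and 3 heads of w1118, the white-eyed laboratory strain labelled as wild type, and the 6 DMSO libraries likewise from 3 heads labelled SIRT6 KO and 3 of w1118. The inhibitor was 680C91 at 100 µM in the yeast extract of the diet, given from eclosion with fresh medium every other day. All groups shared the age of 21 days, virgin status, the cornmeal diet, 25 °C and a 12 h light and dark cycle. The labels name the KO line as SIRT6 KO without its allele, and each library is another fly. Sirt6 itself lay between 1.95 and 2.50 CPM in the 6 libraries labelled KO and between 1.37 and 2.71 CPM in the 6 of w1118, so the knockout does not show in the level of its own transcript and "KO" is used here as a label. CPM is a gene's count scaled to the same library size in every library. Library sizes were first corrected with TMM factors, which set the bulk of genes level between libraries.

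Tryptophan 2,3-dioxygenase, TDO2 in mammals and the product of vermilion (v) in flies, opens the tryptophan ring and starts the kynurenine pathway. That pathway leads to kynurenine, to 3-hydroxykynurenine and, in the fly eye, to the brown ommochrome pigments, while tryptophan that is not broken down can be used for serotonin and protein. Loss of v in flies is known to give bright red eyes and to lower the load of neuroactive kynurenines.

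Libraries held 24633705 to 44545859 counts. Marker genes of the head were present in every library: 8 photoreceptor markers summed to 21530 to 37393 CPM with inhibitor and 23370 to 37409 CPM with DMSO, and 5 neuronal markers to 1403 to 2080 CPM with inhibitor and 1324 to 2109 CPM with DMSO. A pair of libraries stood apart from the rest. Yolk protein transcripts, which the fat body of females makes, took 1.93% of counts in replicate 2 of w1118 with inhibitor and 0.429% in replicate 2 of w1118 with DMSO, against 9.97% to 21.8% in the other 10. Where leaving out both of them changed a call or moved a printed fold change by over 1.5 times, the value without them is given as well. In whole heads, fewer cells of a type and less RNA per cell cannot be told apart.

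Over both genotypes, edgeR's quasi-likelihood test at an adjusted p of 0.05 called 1 gene of 14155 (0.00706% of genes), and it was lower with the inhibitor. The second smallest adjusted p was 0.974. At an unadjusted p under 0.05 there were 253 genes with higher levels in the inhibitor libraries (1.79%) and 361 with lower levels (2.55%). The median standard error of a log2 fold change was 0.17, so the change of a typical gene was known to within about that size. Besides the test, genes were described by whether the libraries overlapped: a gene is called separated when its lowest level in one treatment lay above its highest level in the other. Among 10807 genes that averaged at least 1 CPM, 32 were separated with higher levels in the inhibitor libraries (0.296%) and 12 with lower levels (0.111%). Of the 32, 15 reached that average only through replicate 2 of w1118 with inhibitor. Without replicate 2 of both w1118 groups 64 genes were separated with higher and 30 with lower levels, from fewer libraries. Separation is a description and not a test. Among so many genes some separate by chance, and how many of those described below do so was not tested.

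The gene that passed was roX2 (FBgn0019660, a non-coding RNA gene on the X chromosome from 11579065 to 11580432 of BDGP6, plus strand). It is known as one of the 2 RNAs that, with the MSL proteins, coat the single X chromosome of male flies and raise its transcription. It overlaps no other gene in the annotation. In the heads labelled KO it had 1.11, 1.20 and 1.1 CPM with inhibitor, against 2.26, 3.21 and 2.86 CPM with DMSO. In w1118 it had 0.877, 0.784 and 0.679 CPM with inhibitor, against 3.04, 2.07 and 2.31 CPM with DMSO. All 6 inhibitor libraries lay below all 6 DMSO libraries, in each genotype and over both. The gene is weakly expressed, so the levels rest on 22 to 50 counts per library with inhibitor and 81 to 127 with DMSO. The mean was 0.958 CPM ± 0.208 with inhibitor and 2.62 CPM ± 0.472 with DMSO (SD, n = 6 each). The inhibitor level of roX2 was 0.362 times that with DMSO. As a log2 fold change roX2 fell by 1.47 with an SE of 0.15 and a 95% interval of -1.79 to -1.15, at an edgeR adjusted p of 0.00995. By genotype the log2 fold change was -1.29 in KO heads and -1.66 in w1118, each with an SE of 0.20. The call sat close to the threshold: leaving out single libraries gave an edgeR adjusted p between 0.0049 and 0.0578 and lost it in 5 of 12 cases, while the log2 fold change stayed between -1.54 and -1.36. Without the pair of libraries that stood apart it was -1.47 (adjusted p = 0.00873).

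**Figure D1:**
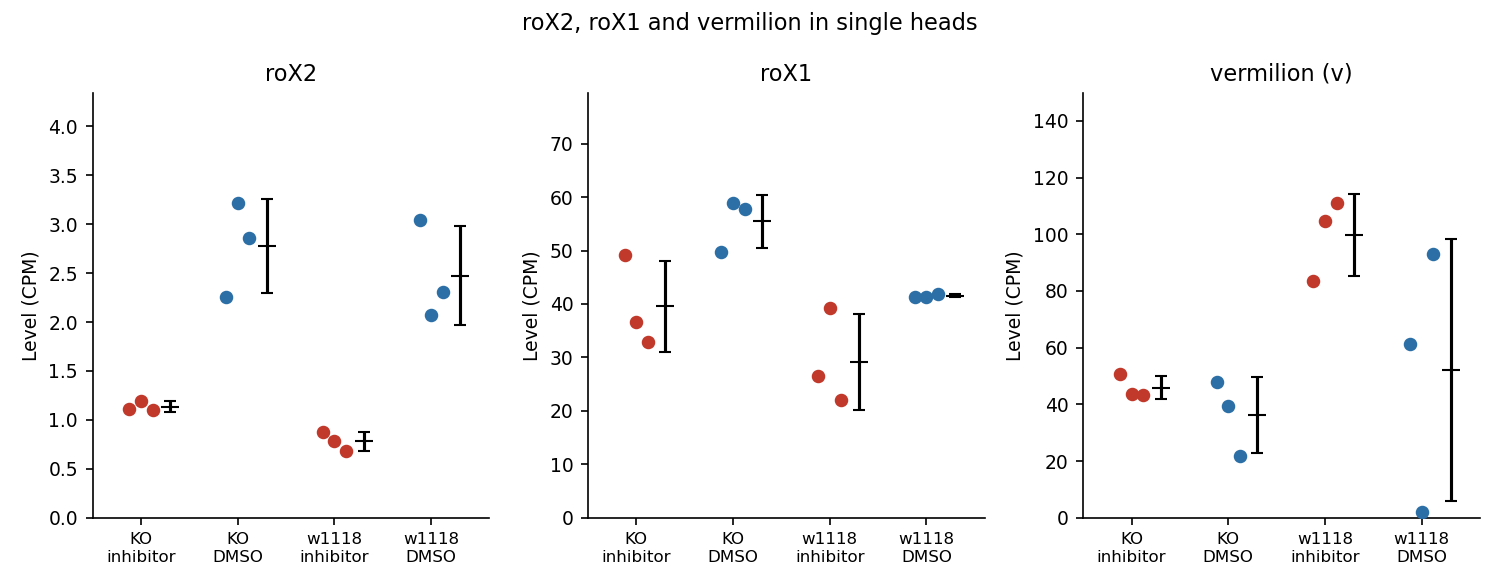
Level in CPM (vertical axes, from 0) of roX2, roX1 and vermilion in each library, by genotype and treatment. Points are single heads, red with inhibitor and blue with DMSO, and bars are the mean ± SD of 3 heads. For roX2 the inhibitor heads lie between 0.679 and 1.20 CPM, all below the DMSO heads, while for v 1 DMSO head of w1118 lies at 2.12 CPM.

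The partner RNA roX1 (FBgn0019661, X chromosome from 3857230 to 3862697, minus strand) was more abundant and overlapped between treatments. It had 49.2, 36.6 and 32.9 CPM in KO heads with inhibitor, against 49.8, 58.8 and 57.7 CPM with DMSO. In w1118 it had 26.4, 39.2 and 21.96 CPM with inhibitor, against 41.3, 41.4 and 42.0 CPM with DMSO. Within each genotype every inhibitor library was below every DMSO library, and the overlap arose only across genotypes. The log2 fold change of roX1 was -0.50 (SE 0.14, edgeR adjusted p = 0.974), and -0.60 (adjusted p = 0.230) without the 2 libraries that stood apart. The genes of the MSL proteins behaved otherwise. The log2 fold changes of msl-1, msl-2, msl-3, mle and mof ranged from -0.05 to -0.03 and that of Clamp, whose protein recruits the complex to the X chromosome, was 0.01. The signs of the first 5 turned under some settings, and without the pair of libraries that stood apart they ran from -0.11 for mof to 0.07 for mle. Genes of the X chromosome as a group had a median log2 fold change of -0.01 over 2212 genes, against -0.01 over 11891 autosomal genes. Of the male tissue markers, 6 testis genes summed to 0.718 to 3.31 CPM with inhibitor and 0.563 to 1.30 CPM with DMSO. The 4 accessory gland genes summed to 2.87 to 7.77 CPM with inhibitor and 3.11 to 4.54 CPM with DMSO. The part of RNA from male tissue in the roX2 values was not tested.

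The target's own gene, v (FBgn0003965, X chromosome from 10923972 to 10925631, plus strand), was not separated. It had 50.6, 43.8 and 43.3 CPM in KO heads with inhibitor, against 48.0, 39.3 and 21.7 CPM with DMSO. In w1118 it had 83.5, 104.8 and 110.9 CPM with inhibitor, against 61.2, 2.12 and 93.0 CPM with DMSO. The groups overlapped, and the lowest value belonged to the DMSO library with the smallest yolk share. The log2 fold change was 0.64 (SE 0.59, 95% interval -0.66 to 1.93, edgeR adjusted p = 0.98), and 0.34 without both replicate 2 libraries of w1118. The interval holds both lower and higher levels. Of 13 genes tested for tryptophan breakdown, kynurenine and ommochromes, 0 were higher and 2 lower at an unadjusted p under 0.05. Of all genes 1.79% were higher and 2.55% lower at that level. The median log2 fold change of the 13 was -0.07, against -0.01 over all genes. Scaled by the library total, 1 of the 13 was lower and 0 higher. The 2 lower with TMM were KFase, the formamidase that releases kynurenine after the TDO step, at -0.29 (SE 0.10, edgeR adjusted p = 0.974), and st, a subunit of the transporter that carries pigment precursors into pigment granules, at -0.41 (SE 0.15, adjusted p = 0.974). Without the 2 libraries that stood apart st was at -0.20 (SE 0.07), and 1 of the 13 was higher and 2 lower. In that fit 5.10% of all genes were higher and 3.23% lower. KFase had 11.4 to 18.6 CPM with inhibitor (median 13.9) and 14.3 to 25.7 CPM with DMSO (median 16). In KO heads all 3 inhibitor values of KFase, at most 12.7 CPM, lay below the 3 DMSO values of 14.3 CPM or more, while in w1118 the ranges overlapped.

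Among the 12 genes separated at lower levels with the inhibitor, 11 code for proteins, and in 10 the highest DMSO value was that of w1118 replicate 2. CG10237 and CG8306 separated under all 21 other settings tried, and roX2 under 20, all but the one that kept genes averaging at least 10 CPM. Most of these settings only left out libraries or changed the filter, where a separated gene tends to stay separated. The count therefore says little about robustness. CG10237 and CG5973, whose products belong to the CRAL-TRIO family of proteins that bind lipids such as retinoids, are both on 2L. CG10237 had 49.5 to 74.6 CPM with inhibitor (median 57.5), against 79.8 to 140.1 CPM with DMSO (median 86.9). Its log2 fold change was -0.69 (SE 0.14, edgeR adjusted p = 0.974; DESeq2 adjusted p = 0.019). CG5973 had 36.5 to 65.7 CPM with inhibitor (median 55.3), against 68.0 to 176.6 CPM with DMSO (median 73.2). Its log2 fold change was -0.71 (SE 0.25), and -0.34 without the 2 libraries that stood apart. Both genes overlap a neighbour on the other strand, RanGAP for CG10237 and santa-maria for CG5973. As the counting is not stated to use strand, reads from the overlap cannot be assigned. The log2 fold change was 0.07 for RanGAP and 0.01 for santa-maria.

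CG8306, annotated as a fatty acyl-CoA reductase of the kind that makes fatty alcohols, had 32.8 to 44.6 CPM with inhibitor (median 41.9) and 47.2 to 100.4 CPM with DMSO (median 50.5). Its log2 fold change was -0.54 (SE 0.17), and -0.30 (SE 0.06) without the 2 libraries that stood apart. CG7236, a kinase of the cyclin-dependent kinase-like family, had 7.06 to 9.07 CPM with inhibitor (median 7.43) and 9.70 to 13.8 CPM with DMSO (median 12.2), with a log2 fold change of -0.61 (SE 0.12, edgeR adjusted p = 0.974; DESeq2 adjusted p = 0.0087). The products of 2 genes act on sugars attached to proteins: tw, a protein O-mannosyltransferase, at -0.46 (SE 0.13), and CG34056, of a galactosyltransferase family, at -0.51 (SE 0.15). The rest were CG7365 at -0.47, bero, a small membrane-anchored protein of the Ly6 family, at -0.31, the eye and brain homeobox gene Optix at -0.27, veli, the fly Lin-7 scaffold protein of synapses and epithelia, at -0.25, and Dp, the partner of the E2F cell cycle factors, at -0.14. Dp shows how narrow such a gap can be, with 46.9 to 54.0 CPM with inhibitor against 55.4 to 59.5 CPM with DMSO. On the other strand tw overlaps CG13360 (361 bp, log2 fold change -0.21) and Dp overlaps Fsn (27 bp, -0.07). Reads from these overlaps cannot be assigned either. Scaled by median of ratios, 10 of the 12 were separated, but scaled by the library total alone only roX2, CG10237 and CG8306 were, that is 3. Without replicate 2 of both w1118 groups 8 of the 12 were separated, and bero, CG34056, Optix and veli were not. In that fit CG7365 was at -0.29 and Optix at -0.17.

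**Figure D2:**
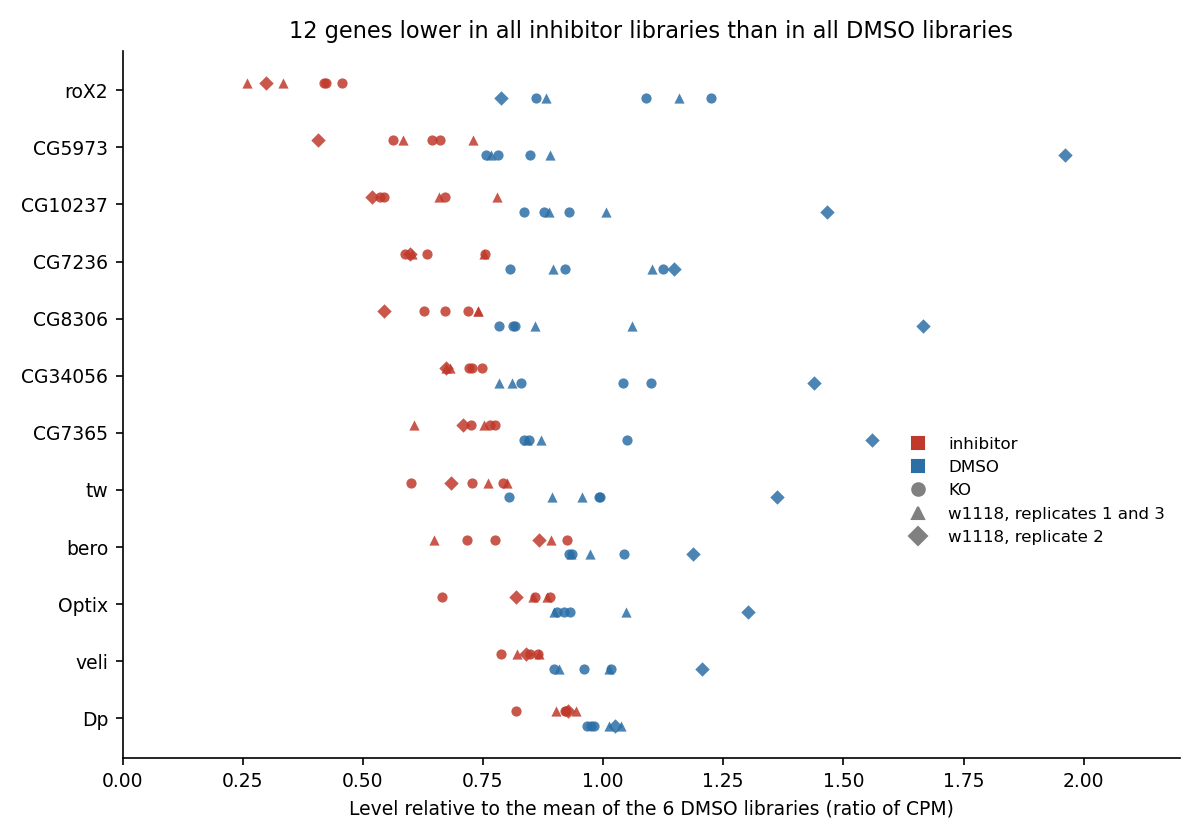
Level of each of the 12 genes lower in all inhibitor libraries, as a ratio to the mean of the 6 DMSO libraries (horizontal axis, from 0). Each point is a library, red with inhibitor and blue with DMSO. Only roX2 lies below 0.5 in all 6 inhibitor libraries, and the DMSO library of w1118 replicate 2 (blue diamonds) is the highest in 10 of the 12 genes.

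The genes separated at higher levels had another shape. In 24 of the 32, replicate 2 of w1118 with inhibitor stood more than 10 times above every other library, at 41.5 to 2789 CPM, while the other 5 inhibitor libraries still lay above the 6 DMSO libraries. These 24 were 16 protein-coding genes, 7 non-coding RNAs and 1 pseudogene. Over the other 11 libraries 9 of the 24 averaged at least 1 CPM, and 15 did not. Their log2 fold changes were 2.85 to 10.86 with all libraries and 0.82 to 6.12 without replicate 2 of both w1118 groups, where 10 of the 24 averaged 1 CPM and were separated. The non-coding RNA lncRNA:CR46480 had 918 CPM in that library, 2.45 to 5.15 CPM in the other 5 inhibitor libraries and 0.0225 to 0.111 CPM with DMSO. CG43296 had 961 CPM there, 1.37 to 3.89 CPM in the other 5 and 0 to 0.145 CPM with DMSO. CG10909 had 658 CPM there, 1.60 to 2.73 CPM in the other 5 and 0.166 to 0.300 CPM with DMSO. Known genes of this kind, named after their values were seen, included the mitotic kinase Cdk1, with 668 CPM there, 2.22 to 4.44 CPM in the other 5 and 0.557 to 0.900 CPM with DMSO. They also included asp, a spindle protein, with 604 CPM there, 2.38 to 3.45 CPM in the other 5 and 0.891 to 1.92 CPM with DMSO, and the chemoreceptor genes Or92a and Ir94d. In the other 5 inhibitor libraries the median level of the 24 was 0.175% to 2.19% of that in replicate 2 of w1118, and 1.69 to 92.6 times the DMSO median. The largest of these ratios, that of lncRNA:CR46480, rests on 1 to 5 counts per DMSO library. CG43296 had 0 to 4 counts there, so such ratios are poorly fixed. By rank of fold change the remaining genes named were CG42571, CG10912, CG13218, CG15429, alpha-Est4aPsi, lncRNA:CR44151, CG10839, CG34283 and lncRNA:CR46083, with 0.215 CPM or more in each of the other 5 inhibitor libraries. None passed the test with all libraries in (edgeR adjusted p = 0.974 for each). Some of the 24 lie within another gene of the annotation, such as alpha-Est4aPsi in alpha-Est6, CG34283 in ChAT and CG33098 in Sol1. Reads from these overlaps cannot be assigned with certainty.

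**Figure D3:**
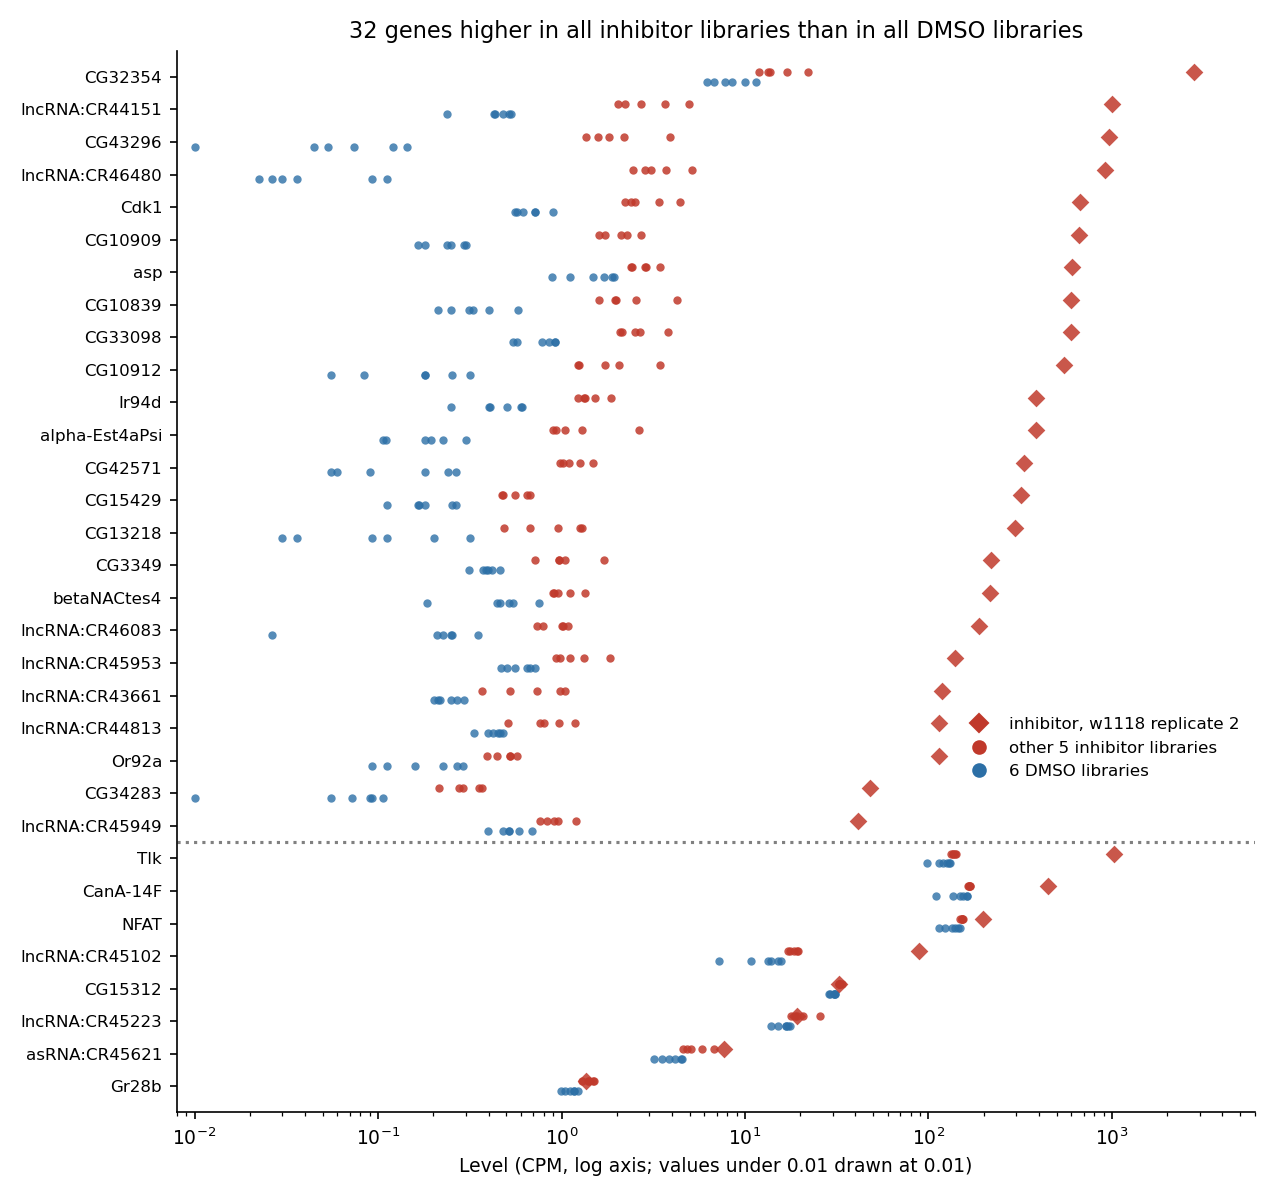
Level in CPM (horizontal log axis) of the 32 genes higher in all inhibitor libraries. Red diamonds mark replicate 2 of w1118 with inhibitor, red points the other 5 inhibitor libraries and blue points the 6 DMSO libraries. Above the dotted line are the 24 genes in which that library is over 10 times any other, with values of 41.5 to 2789 CPM, and below it the other 8.

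The same library held 158 genes at over 10 times their highest level elsewhere, against 0 to 3 such genes in each of the other libraries. Of these, 145 had at least 10 CPM there, 118 of them protein-coding, and together they made up 3.15% of its gene counts (31547 CPM). Summed over the 145 genes, the other 5 inhibitor libraries held 1.91% to 2.14% of that level and the DMSO libraries 1.60% to 1.76%. The ranges of this sum did not overlap, while gene by gene 24 of the 145 had all 5 other inhibitor libraries above all 6 DMSO libraries. Why a set of genes high in 1 library was found at a small share of that level in the rest of its treatment was not tested. When that library was left out, edgeR called 15 genes, 14 of which were among the 158 and higher with inhibitor, and the other was roX2.

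The other 8 separated genes with higher levels were looked at after their values were seen. In Tlk (Tousled-like kinase), CanA-14F (a catalytic subunit of calcineurin), NFAT (the transcription factor that calcineurin activates in mammals) and lncRNA:CR45102, replicate 2 of w1118 was again the highest, with 1026, 449, 198 and 89.0 CPM. NFAT had 149 to 155 CPM in the other 5 inhibitor libraries and 114 to 148 CPM with DMSO. CanA-14F had 164 to 169 CPM in the other 5 and 110 to 163 CPM with DMSO. These gaps were narrow, and CanA-14F and NFAT overlapped once the libraries were scaled by median of ratios. Without replicate 2 of both w1118 groups 5 of these 8 genes were separated, and the log2 fold change was 0.22 for Tlk against 1.02 with all libraries, 0.23 for CanA-14F against 0.52, and 0.64 for lncRNA:CR45102 against 1.12. Gr28b, a taste receptor gene that also serves warmth and light sensing, had 1.30 to 1.51 CPM with inhibitor (median 1.41) and 0.990 to 1.23 CPM with DMSO (median 1.14), with a log2 fold change of 0.33 (SE 0.10, edgeR adjusted p = 0.974). CG15312 had 32.4 to 33.6 CPM with inhibitor and 28.5 to 30.9 CPM with DMSO, a log2 fold change of 0.12. The antisense RNAs lncRNA:CR45223 (0.32) and asRNA:CR45621 (0.53) overlap CG14322 and Fpgs1 on the other strand. The levels of lncRNA:CR45223 were 17.8 to 25.6 CPM with inhibitor and 13.8 to 17.6 CPM with DMSO. For asRNA:CR45621 the levels were 4.61 to 7.66 CPM with inhibitor, the highest again in replicate 2 of w1118, and 3.19 to 4.49 CPM with DMSO, and Fpgs1 had 441 CPM in replicate 2 of w1118 with inhibitor. Without strand, reads of such pairs cannot be told apart. Scaled by the library total, only asRNA:CR45621 of these 8 was separated.

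Genes of synapses and neuronal activity leaned towards higher levels with the inhibitor. Of 24 tested, 19 had a positive log2 fold change and 2 an unadjusted p under 0.05, both higher, where 1.79% of all genes were higher. The 2 were Hr38, an orphan nuclear receptor whose transcript is used as a marker of recent neuronal activity, and Rim, an organiser of the presynaptic release site. The median was 0.11 with TMM, against -0.01 over all genes, but -0.01 when scaled by the library total, so its sign depends on the scaling. Hr38 had 48.9, 40.8 and 44.3 CPM in KO heads with inhibitor, against 32.0, 30.6 and 29.6 CPM with DMSO. In w1118 it had 49.3, 82.2 and 47.0 CPM with inhibitor, against 34.3, 58.1 and 29.6 CPM with DMSO. Both replicate 2 libraries were the highest of their group, and the overlap between treatments came from the DMSO one alone. Over both genotypes its log2 fold change was 0.54 (SE 0.18, edgeR adjusted p = 0.974), with 0.54 in KO and 0.55 in w1118.

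Without replicate 2 of both w1118 groups more of these genes had higher levels. The share of all genes at an unadjusted p under 0.05 also rose, from 4.34% to 8.33%. Hr38 then rose by 0.57 (SE 0.06, edgeR adjusted p = 0.00873), with 40.8 to 49.3 CPM in 5 inhibitor libraries against 29.6 to 34.3 CPM in 5 DMSO libraries. Of the 21 other settings Hr38 passed in this 1 alone. Of the 24 genes, 23 had a positive log2 fold change with a median of 0.25, against 0.00 over all genes, and 16 had an unadjusted p under 0.05, all higher. That is 66.7% of the list, where 5.10% of all genes were higher at that level. With the other scalings 12 to 16 of the 24 were. Only Hr38 passed after adjustment. The 16 were named after their values were seen. They included the potassium channels Sh (0.41, SE 0.10), eag (0.32, SE 0.09) and slo (0.26, SE 0.08), the calcium channels cac (0.26) and Ca-alpha1D (0.25), and the sodium channel para (0.27). They also included release machinery, with unc-13 (0.33), Rim (0.31), Syx1A (0.26), Syt1 (0.27) and Snap25 (0.20), the acetylcholine genes VAChT (0.22) and Ace (0.18), and sr, another activity-regulated gene, at 0.25. Sh had 190 to 234 CPM in the 5 inhibitor libraries and 127 to 190 CPM in the 5 DMSO libraries. The pan-neuronal marker elav moved with them, at 0.27 (SE 0.07), with 171 to 210 CPM in the 5 inhibitor libraries against 126 to 190 CPM in the 5 DMSO libraries. Over all 5 neuronal markers, 5 were positive with a median of 0.27, and all 5 are also among the 24. The part of the share of neuronal RNA in these values was not tested. With all 12 libraries the same list was moved by w1118 replicate 2, where elav had 152 CPM with inhibitor and 222 CPM with DMSO.

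**Figure D4:**
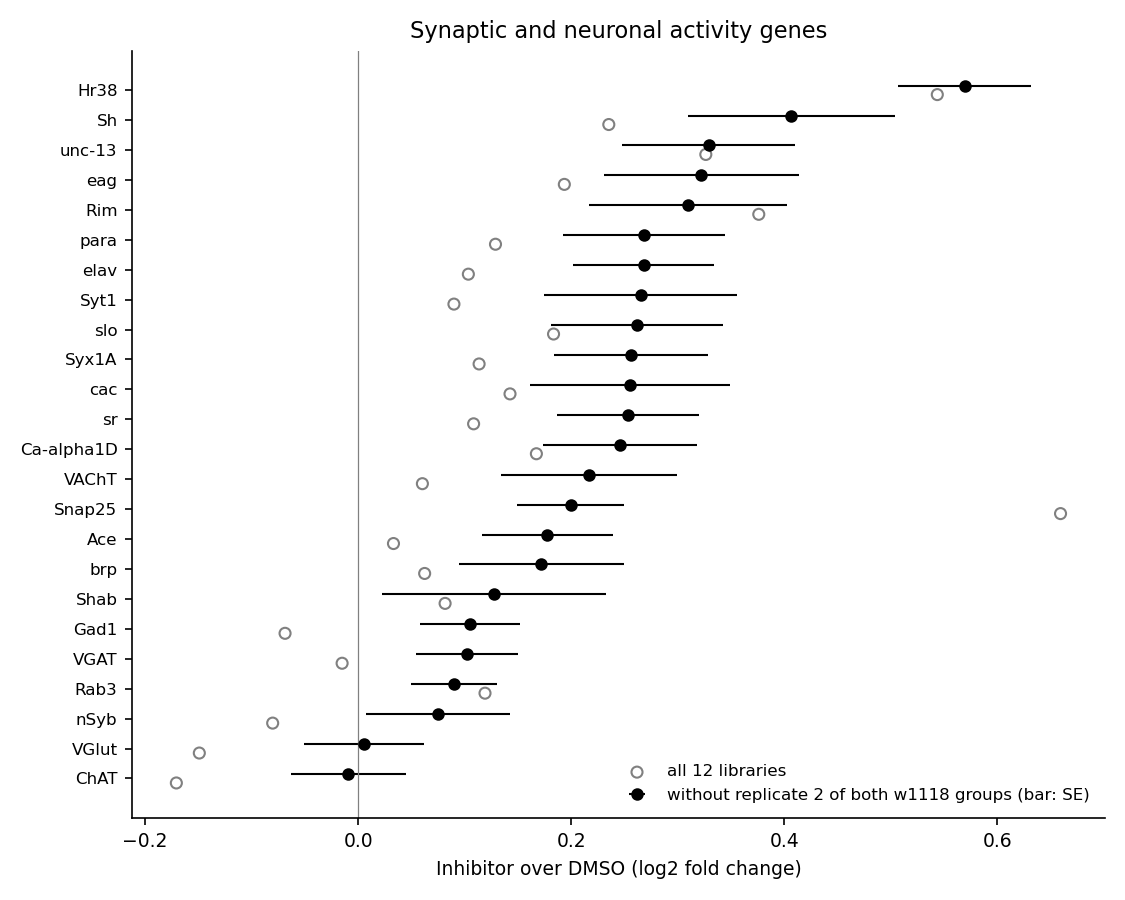
Log2 fold change of inhibitor over DMSO (horizontal axis) for 24 genes of synapses and neuronal activity. Filled points, with bars of 1 SE, leave out replicate 2 of both w1118 groups and open points use all 12 libraries. Of the filled points 23 lie above 0, with Hr38 the highest at 0.57, and most open points lie closer to 0.

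Serotonin and dopamine genes gave 1 of 20 at an unadjusted p under 0.05, where 1.79% of all genes were higher. This was the serotonin receptor 5-HT1B, which was higher. It had 20.3, 22.4 and 19.2 CPM in KO heads with inhibitor, against 16.1, 17.6 and 18.9 CPM with DMSO. In w1118 it had 31.1, 32.3 and 26.2 CPM with inhibitor, against 24.7, 18.3 and 21.2 CPM with DMSO. Within each genotype every inhibitor library was above every DMSO library, and across genotypes they overlapped. The log2 fold change was 0.36 (SE 0.10, edgeR adjusted p = 0.974), and 0.28 without the 2 libraries that stood apart. Without them 4 of the 20 were higher and 0 lower at an unadjusted p under 0.05 (20% of the list, against 5.10% of all genes higher), with a median log2 fold change of 0.10. The others, named after their values were seen, were Dop1R1 (0.24) and DopEcR (0.19), both dopamine receptors, and Ddc (0.18), the decarboxylase that makes dopamine and serotonin. The count depends on the scaling. Without the same libraries and scaled by the library total, 1 of the 20 was higher, with a median of 0.06, while the other scalings kept 4.

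Detoxification genes leaned the other way. Of 73 cytochrome P450 genes 5 were lower and 0 higher at an unadjusted p under 0.05, and of 67 glutathione and glucuronosyl transferases 8 were lower and 0 higher. Together that is 13 of 140, or 9.29%, where 2.55% of all genes were lower and 1.79% higher. The median log2 fold change was -0.03 for the P450 genes and -0.12 for the transferases. Cyp6a2, a P450 known for raised levels in insecticide-resistant flies, had 12.8 to 26.6 CPM with inhibitor (median 18.5) and 21.6 to 38.2 CPM with DMSO (median 25.7). The log2 fold change of Cyp6a2 was -0.57 (SE 0.16, edgeR adjusted p = 0.974). Cyp6a21 was at -0.51 and Cyp4e3 at -0.54. Among the transferases GstZ2 was at -0.53, GstE6 at -0.46, GstE11 and Ugt35A1 at -0.41 each, and Ugt37D1, with the smallest p of the list, at -0.30 (SE 0.08). The ranges of these genes overlapped between treatments. Without the 2 libraries that stood apart, 13 were lower and 3 higher of the 140, where 3.23% of all genes were lower and 5.10% higher. In that fit GstZ2 was at -0.25, GstE6, GstE11 and Ugt35A1 at -0.27 each and Cyp4e3 at -0.28, and of these GstE6 kept an unadjusted p under 0.05. The antioxidant and cnc/Keap1 list gave 0 of 20 in either direction.

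Genes of light detection were lower at an unadjusted p under 0.05 in 5 of 39 cases (12.8%) and higher in 0, where 2.55% of all genes were lower. Their median log2 fold change was -0.10. With the other scalings 1 to 3 of the 39 were lower, so the count depends on the scaling. The 5 were the opsins Rh3 (-0.30), Rh4 (-0.30) and Rh5 (-0.31), the corneal protein retinin (-0.40) and the receptor kinase Gprk2 (-0.24). Rh5 had 170 to 246 CPM with inhibitor (median 207) and 193 to 391.7 CPM with DMSO (median 238), and the highest value was again w1118 replicate 2. Gprk2 differed from the others in that its fold change grew to -0.29 (SE 0.05, edgeR adjusted p = 0.149) without the 2 libraries that stood apart, while the median of the list turned to 0.03. Retinin was then at -0.20 and Rh4 at -0.19. Of the 39, 2 were higher and 4 lower, where 5.10% of all genes were higher and 3.23% lower. Odorant binding proteins, which carry odours in the fluid of sensory hairs, were lower in 4 of 33 cases (12.1%, against 2.55% of all genes) and higher in 0. Without the 2 libraries that stood apart 3 of 31 were lower and 1 higher, against the same 3.23% and 5.10% of all genes. Obp19d had 93.4 to 224 CPM with inhibitor (median 155) and 163 to 668 CPM with DMSO (median 259), a log2 fold change of -0.85 (SE 0.24, edgeR adjusted p = 0.974), and -0.53 without those libraries.

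In the remaining lists of pathways at most 1 gene in each direction had an unadjusted p under 0.05. TotA, a secreted stress protein of the Turandot family, was at 1.98 (SE 0.78), with 42.6 to 549 CPM with inhibitor and 8.03 to 74.8 CPM with DMSO. Its highest inhibitor value and its lowest DMSO value were both from w1118 replicate 2, and without these libraries it was at 0.86 (SE 0.54). Hsp22, a small heat shock protein of mitochondria, was at -0.88 (SE 0.30), with 7.08 to 45.7 CPM with inhibitor and 11 to 111 CPM with DMSO. BomT1, a short immune peptide of the Bomanin family, was at 0.94, scyl, a stress-induced inhibitor of growth signalling, at 0.39, and Naam, the nicotinamidase of NAD salvage, at 0.52. PEK, the kinase of the unfolded protein response, was at -0.20 and nmo, a kinase listed with the clock genes, at 0.21. All of these had an edgeR adjusted p of 0.974 and ranges that overlapped. Without the 2 libraries scyl was at 0.24, and up to 3 genes in 1 direction had an unadjusted p under 0.05, with 3 of 23 stress response genes higher and 3 of 48 feeding genes lower. In that fit 5.10% of all genes were higher and 3.23% lower, and with so few genes these counts are not read further. In the list of 9 genes drawn up for the aryl hydrocarbon receptor, Hr38, the orphan nuclear receptor above, was again the gene with such a p. That it is a partner of this receptor is not established here. Of the marker genes of other cell types, the astrocyte gene alrm was at -0.33 and Irk3, a potassium channel of the Malpighian tubule, at -0.31, each with an adjusted p of 0.974 (-0.20 and -0.19 without the 2 libraries), while markers of muscle, hemocytes, midgut, ovary and fat body gave 0 genes. Feeding and sugar genes (48), yolk and female fat body genes (17), the nuclear respiratory chain (66), the mitochondrial genome (13) and the proteasome (32) had 0 genes in either direction.

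**Figure D5:**
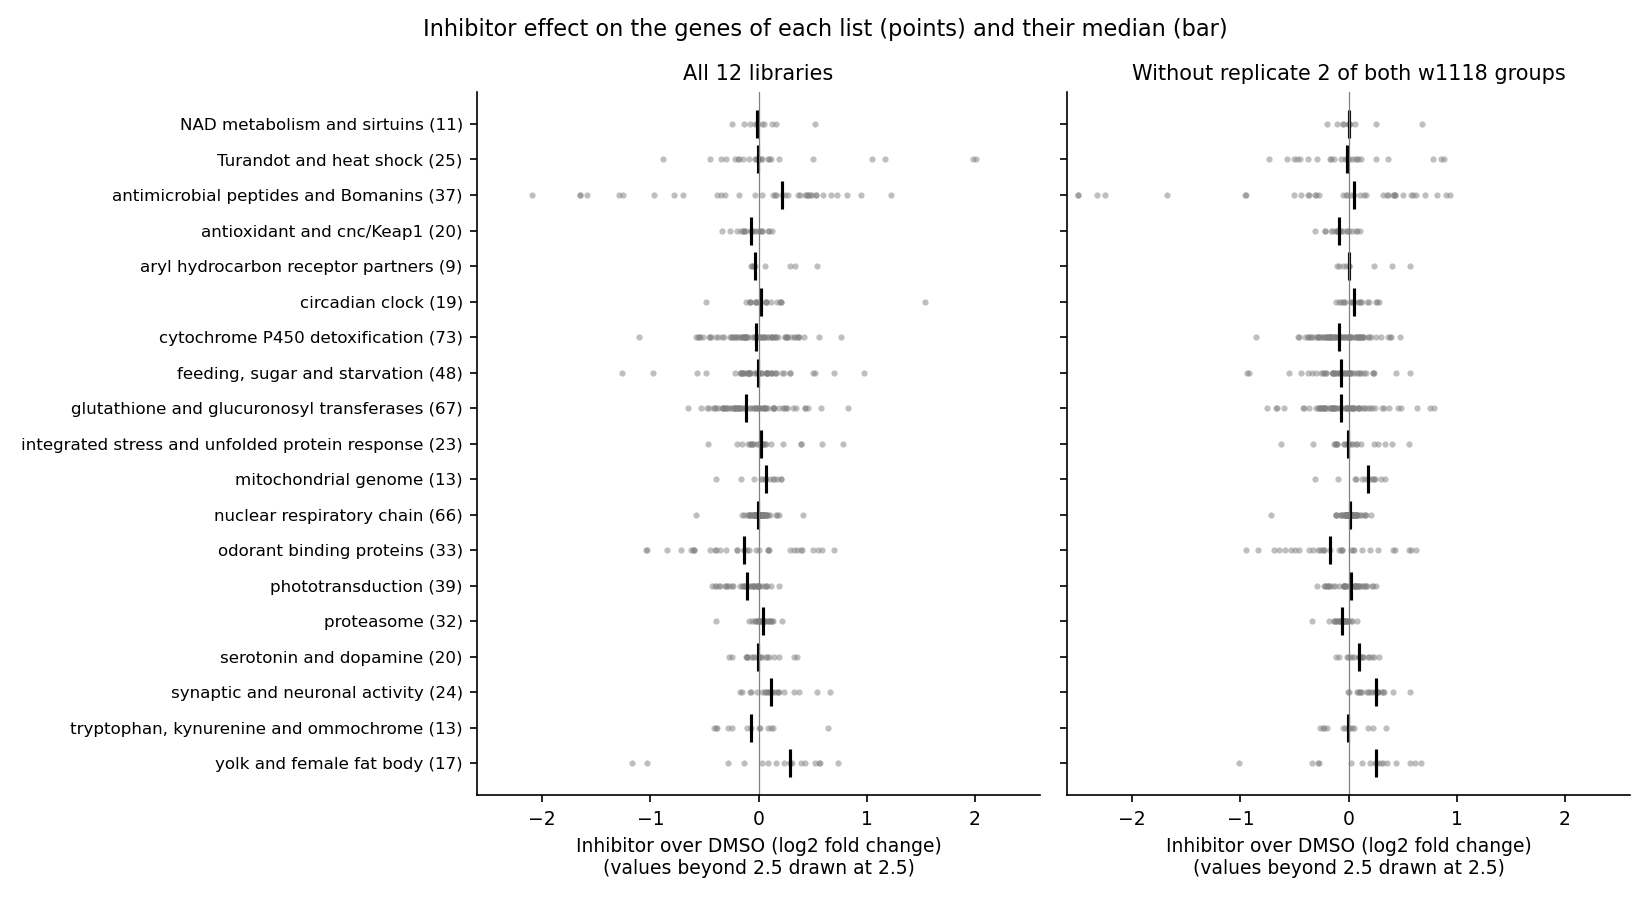
Log2 fold change of inhibitor over DMSO (horizontal axes, values beyond 2.5 drawn at 2.5) for the genes of 19 lists, with the number of genes in brackets. Grey points are genes and black bars list medians, on the left with all 12 libraries and on the right without replicate 2 of both w1118 groups. The median of the synaptic list lies at 0.11 on the left and 0.25 on the right, and that of phototransduction at -0.10 and 0.03.

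The additive model describes an effect that both genotypes share. Of the 614 genes with an unadjusted p under 0.05, 613 had the same sign in both genotypes, as their choice by a model of a shared effect favours. Tested directly, the interaction of inhibitor and genotype was called at an adjusted p of 0.05 for 0 genes in edgeR, with 685 at an unadjusted p under 0.05, and in DESeq2 for 53. Within genotypes, edgeR called 1 gene for the inhibitor in the libraries labelled KO, with 523 at an unadjusted p under 0.05, and 0 in w1118, with 1046. The interaction of roX2 was 0.37 (SE 0.28) and did not pass, so a difference in its response between genotypes was not shown. The gene called in KO was CG42558, named after its values were seen, which is listed at 0 in all 3 KO libraries with inhibitor, against 14.8, 14.6 and 16.9 CPM with DMSO. The w1118 libraries had 12.3 CPM or more of it with inhibitor and 2.55 to 15.4 CPM with DMSO. A looser count, of genes separated 3 against 3 in both genotypes in the same direction, gave 110 of 10807 (1.02%), 61 higher and 49 lower, and among them were roX1 and 5-HT1B.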

How the data were processed

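Per the labels' protocols, total RNA of 12 single heads went through DNase treatment, addition of ERCC spike-ins, ribosomal RNA depletion and NEBNext Ultra II library preparation. The deposited table holds estimated counts per feature, which the authors made with Trim Galore 0.6.7, STAR 2.7.9a and Salmon 1.10.1 on BDGP6, per the submitters' processing notes. Library totals differ, so the estimated counts had not been scaled when deposited. The strand setting is not given in the sources used here. The table used here holds 0 ERCC rows, so no scaling by spike-in was made. Of its rows, 17895 are genes, of which 17855 matched a symbol, and 6383 rows of transposable elements and other features were left out.

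Counts were rounded. Genes that passed edgeR's filterByExpr with a minimum count of 10 were scaled by TMM and tested with edgeR 4.0.16 (R 4.3.3) for the treatment coefficient of a model of genotype and treatment, by a two-sided quasi-likelihood test with Benjamini-Hochberg adjustment at 0.05. Standard errors and 95% intervals come from the test statistic. Separation used TMM-scaled CPM in genes averaging at least 1 CPM. A level of 3 counts corresponds to 0.0554 to 0.108 CPM, which covers counting error only, as the reads carry no molecular identifiers. Alternatives were DESeq2 1.42.0, voom with quality weights in limma 3.58.1, other scalings and filters, a replicate block and leaving out libraries.

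Positions come from an annotation of BDGP6 through the gene identifier. Named genes are v, genes past the threshold, up to 12 separated genes per direction with the largest fold change, and list members that separated or had an unadjusted p under 0.05, with overlapping neighbours. The members, the lists and their tests were chosen with earlier results of these data known. The dosage compensation genes, Sirt6, CG7071, BthD and asRNA:CR45272 were added after their values were seen, as were some names said so in the text. Replicates differ from one another by more than sampling noise.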

Additional observations from a re-analysis of the deposited data

Results flagged for a closer look

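Some single libraries lay far from the other 5 of their treatment, by a gap of more than 0.625 of the group's whole range. Chance flags about 1 in 20 groups, and 170 groups were looked at, of which 54 had such a library. The genes were mostly chosen for separation, and the groups join both genotypes, so genotype differences count too. The values below are levels in CPM.

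Replicate 2 of w1118 with inhibitor was the distant library in 31 of the 54. Among the genes described as over 10 times any other library it had 383.6 for alpha-Est4aPsi, 604.1 for asp, 216.1 for betaNACtes4, 668.2 for Cdk1, 601.6 for CG10839, 657.5 for CG10909, 550.9 for CG10912, 295.4 for CG13218, 318 for CG15429, 2789 for CG32354, 599.5 for CG33098, 218.6 for CG3349, 48.26 for CG34283, 332.7 for CG42571 and 961.4 for CG43296. It also had 383.8 for Ir94d, 114.3 for Or92a, 118.1 for lncRNA:CR43661, 997.8 for lncRNA:CR44151, 114.3 for lncRNA:CR44813, 41.45 for lncRNA:CR45949, 139.4 for lncRNA:CR45953, 188.9 for lncRNA:CR46083 and 917.7 for lncRNA:CR46480. Of genes outside that set it had 449 for CanA-14F, 1026 for Tlk, 198 for NFAT, 89.04 for lncRNA:CR45102, 82.23 for Hr38, 531.5 for scyl and 548.8 for TotA. All of these were the highest values of the inhibitor group.

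Replicate 2 of w1118 with DMSO was the distant library in 11, each time as the highest of its group. It had 140.1 for CG10237, 176.6 for CG5973, 40.85 for CG7365, 100.4 for CG8306, 51.38 for GstZ2, 58.15 for Hr38, 25.66 for KFase, 4.357 for Naam, 667.6 for Obp19d, 33.47 for Optix and 9.304 for tw. This library also had the smallest share of yolk protein counts, and that share's part in these values was not tested.

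Other libraries made up the remaining 12. With inhibitor, w1118 replicate 1 had 14.496 for BomT1, w1118 replicate 3 had 33.62 for CG15312, and KO replicate 2 had 10.86 for CG7071. KO replicate 3 with inhibitor had 80.67 for BthD, 46.93 for Dp, 25.59 for lncRNA:CR45223 and 17.08 for Optix. With DMSO, KO replicate 3 had 16.94 for CG7071, w1118 replicate 1 had 65.79 for Ugt302C1, and w1118 replicate 3 had 1.222 for Cyp318a1, 0.2391 for lncRNA:CR44151 and 198.8 for scyl.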

How the results depend on the processing

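Over 21 other settings, 1840 of 1894 values of 92 named genes kept direction and side of the threshold. Of these genes only roX2 was past the threshold in the main fit, and most were chosen for separation or a small p. That choice favours such agreement, which therefore says little about robustness. RoX2 kept its direction in all 21 and was past the threshold in 15, with a log2 fold change of -1.54 to -1.36. The count of genes called, 1 in edgeR's quasi-likelihood test, was 9 with DESeq2, 0 with the replicate block, 17 without replicate 2 of both w1118 groups, and 0 to 15 on leaving out single libraries. Same-numbered libraries did not pair: their deviations correlated at -0.0466 to 0.173 and 2 of 6 pairs exceeded 0.1. With the replicate block roX2 had an edgeR adjusted p of 0.14. RoX2 was also lost without KO inhibitor replicate 1 (adjusted p = 0.0509), KO inhibitor replicate 3 (0.0515), w1118 inhibitor replicate 1 (0.0578), KO DMSO replicate 2 (0.0542) or w1118 DMSO replicate 3 (0.0507).

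Interaction calls, 0 in edgeR with 685 at an unadjusted p under 0.05, were 53 with DESeq2, 1 without replicate 2 of both w1118 groups, and 0 to 1 on leaving out single libraries. Separated genes, 44 in all, were 110 when separated in each genotype, 20 without genes private to w1118 inhibitor replicate 2, 94 without replicate 2 of both w1118 groups, 18 among genes with each level at most 3 times the median (chosen after seeing the data), and 42 to 80 on leaving out single libraries, which leaves fewer libraries to overlap.

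The small fold changes of 5 genes changed sign. With voom mle was at 0.0387, msl-2 at 0.0197 and msl-3 at 0.0114, and without replicate 2 of both w1118 groups mle was at 0.0685 and msl-2 at 0.0410. On leaving out single libraries mle ranged from -0.0581 to 0.0388, msl-1 from -0.0433 to 0.00555, msl-2 from -0.0553 to 0.0540, msl-3 from -0.0735 to 0.0144 and mof from -0.0904 to 0.0214. The causes were not tested. Depth limits low genes most: roX2 rests on 22 to 127 counts.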

Other observations

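A few genes differed between treatments in most libraries and were singled out after their values were seen. CG7071 had 21.1, 10.9 and 18.9 CPM in KO heads with inhibitor, against 3.84, 2.76 and 16.9 CPM with DMSO. In w1118 it had 18.2, 20.9 and 21.6 CPM with inhibitor, against 1.41, 2.31 and 2.02 CPM with DMSO. Only replicate 3 of KO with DMSO overlapped the inhibitor libraries. Its log2 fold change was 2.24 (SE 0.57, edgeR adjusted p = 0.974; DESeq2 adjusted p = 0.0125), and 2.93 (edgeR adjusted p = 0.0141) without that library. BthD, which codes for a selenium-containing protein of the Golgi and secretory pathway, had 0.789 to 80.7 CPM with inhibitor and 0.279 to 0.810 CPM with DMSO, and it varied widely among inhibitor libraries of both genotypes. The antisense RNA asRNA:CR45272 had 0.648 to 2.99 CPM with inhibitor and 0.203 to 0.690 CPM with DMSO, with a log2 fold change of 1.95 (SE 0.38).

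DESeq2 also called net, a transcription factor of wing vein patterning, at 0.40 (adjusted p = 0.034). It further called CG42371 and CG42726, which are listed at 0 in all 6 inhibitor libraries and in 3 of the 6 DMSO libraries, so they rest on 3 libraries each. Without replicate 2 of both w1118 groups edgeR called 2 more genes outside the set private to the inhibitor library: CG43327, listed at 0 in several libraries of either treatment, and asRNA:CR45955, at -0.80 (adjusted p = 0.0331).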
